A study of Mus musculus with 12 samples.

Results

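Metrnl, Gdf15, Npy, Igf1 and Osm encode secreted proteins with known roles in energy balance, and their transcripts were followed across cultured mouse bone marrow cells. These 5 genes were taken as a named set and matched by symbol to the gene identifiers of the count files, and all 5 of the 5 were found among 41388 listed genes and were among the 13030 genes that passed the low-count filter. The study compared C57BL/6 mice with floxed Asxl2 (flox) with LysM Cre positive mice that the labels call KO. Asxl2 encodes a chromatin regulator of the Additional sex combs family, and LysM Cre expresses the recombinase from the Lyz2 promoter, which is active in macrophages and other myeloid cells. Bone marrow cells were grown for 5 days in medium with 10% serum, replated, and kept for 2 days with M-CSF alone (flox BMM and KO BMM) or with M-CSF and 50 ng/ml RANKL (flox OC and KO OC), with 3 RNA-seq libraries in each of the 4 groups.

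M-CSF keeps bone marrow cells in the macrophage lineage, and RANKL drives these cells towards osteoclasts. Every group received M-CSF at 2%, so no group shows cells without it. The age and sex of the mice, the exons flanked by loxP sites, whether the KO mice are homozygous for the floxed allele, and whether replicates come from separate animals could not be read from the labels, so the p-values speak only of the variation among the libraries, part of which may come from handling. Libraries held 18489873 to 21667237 counted reads. Levels are given as CPM, counts per 1000000 reads scaled by the TMM method, with the SD over 3 libraries, and levels are compared between genes only after division by the summed exon length (CPM per kb).

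Asxl2 itself checked the labels. It was at 93.2 ± 3.01 CPM in flox BMM and 15.1 ± 0.265 in KO BMM (SD, n = 3 each), and at 73.4 ± 2.27 in flox OC and 13.7 ± 1.24 in KO OC, with every KO library below every flox library. Reads were summed over the whole gene, so the remaining level in KO cells includes any transcript that lacks only the deleted exons. All 14 macrophage markers were detected in every group, and their summed level, most of it from Lyz2, was 37635 to 38808 CPM over the flox BMM libraries, 32614 to 33434 in KO BMM, 17452 to 17886 in flox OC and 18243 to 18478 in KO OC. Of 12 osteoclast markers 10 were tested, and their sum was 439 to 461 CPM in flox BMM, 444 to 462 in KO BMM, 981 to 997 in flox OC and 617 to 631 in KO OC. The similar BMM sums hide shifts of single markers. In KO BMM 3 of the 10 rose and 4 fell by edgeR (median log2 fold change -0.81), where 39.9% of all tested genes were called. Clcn7, the largest part of the BMM sums, was at 209 ± 7.14 CPM in flox BMM and 244 ± 7.60 in KO BMM, and Atp6v0d2 at 57.4 ± 1.38 and 26.8 ± 1.61. With RANKL, 9 of the 10 rose and 1 fell in flox cells and 8 rose and 1 fell in KO cells (edgeR's adjusted p under 0.05), where 74.8% and 70.5% of all tested genes were called. Acp5, the tartrate-resistant acid phosphatase of osteoclasts, went from 28.9 ± 0.555 to 132 ± 3.79 CPM in flox cells and from 20.3 ± 1.36 to 40.8 ± 1.30 in KO cells. The 2 markers not tested, Calcr, the calcitonin receptor of mature osteoclasts, and Oscar, had 1 and 17 reads over all 12 libraries. Markers of other cells differed with genotype. The summed level of 15 stromal and osteoblast markers was 199 to 217 CPM in flox BMM, 63.3 to 70.5 in KO BMM, 167 to 171 in flox OC and 51.3 to 63.6 in KO OC. The sum of 6 megakaryocyte markers, nearly all of it Pf4, was 344 to 408, 48.0 to 52.2, 134 to 141 and 15.2 to 16.2 CPM in the same order. The part of these cells in the results on genotype was not tested.

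**Figure D1:**
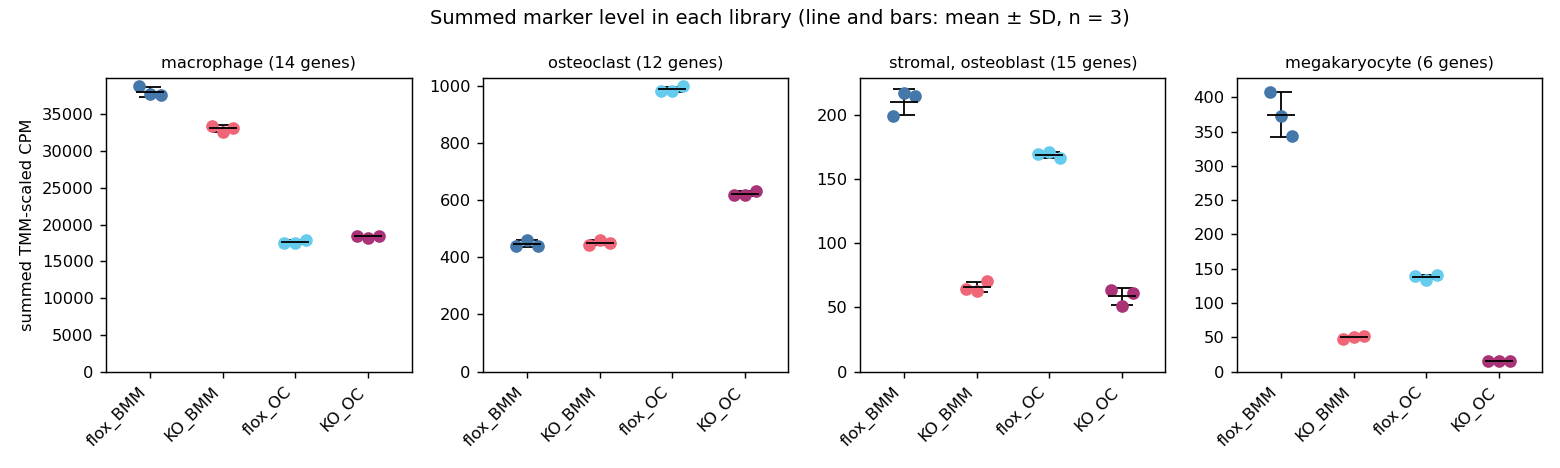
Summed TMM-scaled CPM of 4 marker lists (vertical axis, from 0) in each library of the 4 groups; points are libraries, and lines with bars are the mean ± SD of 3. The macrophage sum was 17452 to 18478 CPM in the RANKL-treated libraries and at least 32614 in the others, the osteoclast sum was highest in flox OC, and the stromal and megakaryocyte sums were lower in KO than in flox libraries.

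Metrnl (meteorin-like) is a hormone-like protein released by macrophages, muscle and fat that is known to promote thermogenic fat. GDF15 is a stress-induced cytokine of the TGF-beta superfamily that lowers food intake through its brainstem receptor GFRAL and the co-receptor RET. NPY is a neuropeptide that stimulates feeding and is also made by some macrophages, IGF1 is a growth factor for which tissue macrophages are a local source, and OSM (oncostatin M) is an IL-6 family cytokine of myeloid cells that acts on stroma, bone and fat. In bulk RNA, a lower share of cells that make a transcript and less transcript per cell cannot be told apart.

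Metrnl (ENSMUSG00000039208) lies on the plus strand of chr11:121701544-121716306 and Igf1 (ENSMUSG00000020053) on the plus strand of chr10:87858265-87937042 in GRCm38. Npy (ENSMUSG00000029819) lies at chr6:49822710-49829507 on the plus strand, Gdf15 (ENSMUSG00000038508) at chr8:70629393-70632456 on the minus strand and Osm (ENSMUSG00000058755) at chr11:4236420-4241026 on the plus strand. None of the 5 shared exonic bases with another annotated gene. Their counted values are sums over all exons, from 566 bases for Npy to 9904 for Igf1, with 1586 for Metrnl, 1852 for Gdf15 and 2272 for Osm.

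RefSeq promoter windows on GRCm38.p6, 250 bases before to 50 bases from the start site on, were at hand for 4 of the 5 genes. The start sites of the Metrnl and Igf1 windows, 121702427 and 87861111, lie inside the annotated genes, which begin at 121701544 and 87858265. Which start sites these cells used was not tested. The windows of Metrnl (chr11:121702177-121702476, plus strand) and Igf1 (chr10:87860861-87861160, plus strand) are shown because both genes were lower with RANKL, and that of Npy (chr6:49822460-49822759, plus strand) because it was the member that was not. Capitals mark matches to GGGCGG (the GC box bound by SP1-type factors) or TGANTCA (the AP-1 motif) on either strand.
Metrnl: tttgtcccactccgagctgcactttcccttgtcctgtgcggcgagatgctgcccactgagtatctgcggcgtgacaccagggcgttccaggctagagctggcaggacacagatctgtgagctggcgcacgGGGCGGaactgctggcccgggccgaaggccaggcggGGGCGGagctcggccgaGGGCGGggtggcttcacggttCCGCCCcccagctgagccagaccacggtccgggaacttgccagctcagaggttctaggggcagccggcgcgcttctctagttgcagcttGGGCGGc
Igf1: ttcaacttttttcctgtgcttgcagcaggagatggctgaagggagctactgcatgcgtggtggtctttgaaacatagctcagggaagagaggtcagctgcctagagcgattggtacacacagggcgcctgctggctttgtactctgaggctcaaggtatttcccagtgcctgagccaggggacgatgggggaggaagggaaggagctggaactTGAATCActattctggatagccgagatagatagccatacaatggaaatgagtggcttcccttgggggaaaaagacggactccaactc
Npy: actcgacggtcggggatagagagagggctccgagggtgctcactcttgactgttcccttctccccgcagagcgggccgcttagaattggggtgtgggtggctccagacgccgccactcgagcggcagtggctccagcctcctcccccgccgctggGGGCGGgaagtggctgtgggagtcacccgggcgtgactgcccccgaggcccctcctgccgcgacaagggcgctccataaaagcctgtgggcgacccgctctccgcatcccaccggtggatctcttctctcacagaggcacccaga

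The Metrnl window held 5 GC boxes, whose first bases lay 120, 84, 67 and 46 bases before and 43 bases after the start site, and 68.0% of its bases were G or C. Igf1, at 52.3% G or C, had no GC box and 1 AP-1 match that began 37 bases before the start. Npy, also at 68.0%, had 1 GC box. The 2 RefSeq windows of Gdf15 held neither motif. The search also covered CRE (TGACGTCA), the E-box (CACGTG), a C/EBP-ATF element (TGATGNAA), the STAT motif (TTCNNNGAA), the TATA box of core promoters (TATAAA) and TGCTGA, one side of the MARE bound by MAF factors, which gave only 1 further match, an E-box 83 bases before the downstream start site of Gdf15. No match overlapped another. Among 27025 RefSeq promoter windows of the same length, 35.9% held a GC box, 7.93% an AP-1 match and 7.24% an E-box. The part of these motifs in the RANKL effects was not tested.

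The 5 transcripts spanned a wide range of levels, described here per kilobase of exon. In flox BMM, Metrnl was at 155 ± 3.12 CPM per kb and Igf1 at 153 ± 2.08, which placed them 279th and 285th among the 13030 tested genes. Npy followed at 23.4 ± 2.55 CPM per kb, Gdf15 at 2.80 ± 0.459 and Osm at 1.52 ± 0.0539. Metrnl and Igf1 were thus abundant transcripts in these cultures, whereas Gdf15 and Osm stood far lower, at ranks 8831 and 9924. The 59 to 67 reads of Osm in each flox BMM library put its counting error near 12.6% of its level, against 0.600% for Igf1.

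**Figure D2:**
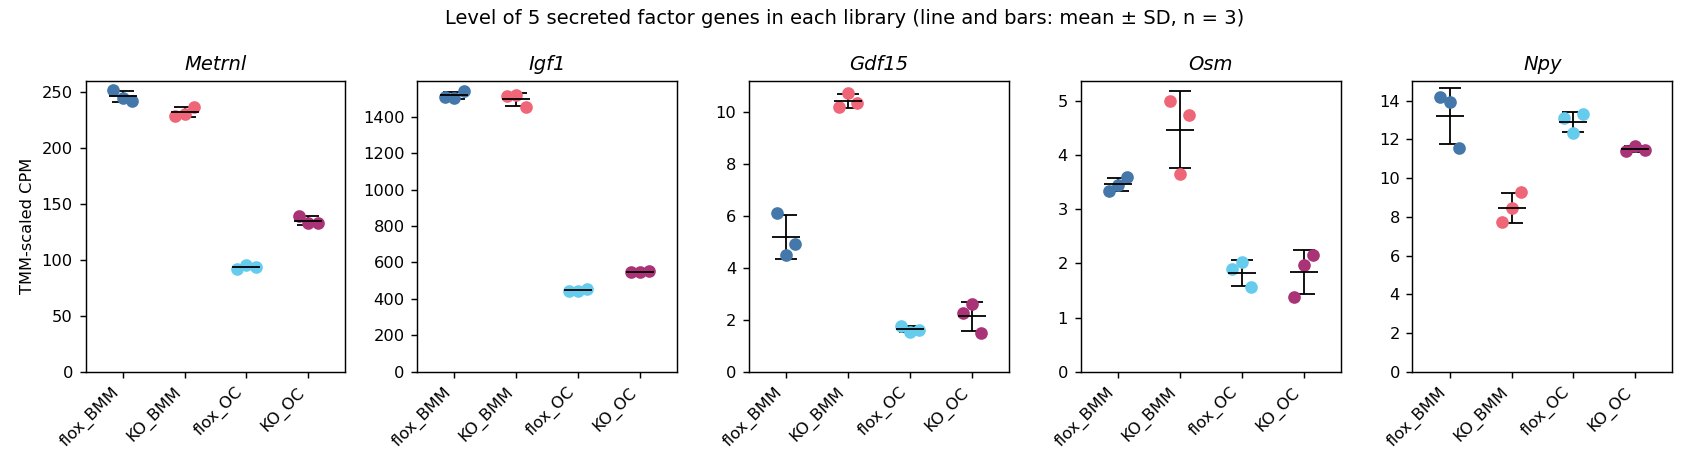
TMM-scaled CPM (vertical axes, each from 0) of the 5 genes in every library of the 4 groups; points are libraries, and lines with bars are the mean ± SD of 3. Metrnl, Igf1, Gdf15 and Osm were lower in all RANKL-treated libraries of a genotype than in its M-CSF libraries. Separation of the libraries with RANKL, in either direction, held for 75.2% of all tested genes in flox and 73.4% in KO cells. Gdf15 was highest and Npy lowest in KO BMM.

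The first comparison asked how KO and flox macrophages differ in M-CSF alone. Gdf15 rose and Npy fell in KO BMM, each with a clear gap between the groups, while the abundant factors Metrnl and Igf1 moved far less, by at most 1.06-fold. Osm and Metrnl passed the test, Osm upwards and Metrnl downwards, but neither call held in every alternative fit. In all, 2 of the 5 rose, 2 fell and 1 did not pass, with edgeR's quasi-likelihood test at an adjusted p under 0.05, against 39.9% of all tested genes called in this comparison (19.3% higher and 20.6% lower). The libraries of the groups did not overlap for 4 of the 5, which held for 46.6% of all tested genes.

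Gdf15 stood at 6.13, 4.48 and 4.94 CPM in the 3 flox BMM libraries and at 10.2, 10.7 and 10.4 CPM in KO BMM. Every KO library was above every flox library, and the KO libraries lay closer together than the flox ones. Their SD was 2.59% of the mean, below the counting error of 6.93%, so this closeness is not read as a trait of KO cells. The increase was 2.02-fold (log2 fold change 1.02 with a standard error of 0.11, adjusted p = 1.03e-10 by edgeR), and it kept its call in all 18 alternative fits.

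Npy was at 14.2, 13.9 and 11.6 CPM in flox BMM and at 7.72, 8.43 and 9.26 CPM in KO BMM. The groups did not overlap, although the third flox library was nearer to the KO range than the others. Npy was 1.56-fold lower in KO cells (log2 fold change -0.64 with a standard error of 0.09, adjusted p = 4.77e-08 by edgeR), and this call also held in all 18 alternatives. Of 6 markers of neurons, a main source of NPY in the body, Th, Dbh and Snap25 had no read in any of the 12 libraries. Of the other 3, Elavl4, named after its values were seen, fell in KO BMM as Npy did, from 2.56 ± 0.379 to 1.45 ± 0.179 CPM (log2 fold change -0.81, adjusted p = 0.000948 by edgeR). Syp was at 4.19 ± 0.291 and 5.09 ± 0.226 CPM and Tubb3 at 0.372 ± 0.304 and 0.171 ± 0.113 CPM in flox and KO BMM, without passing (edgeR adjusted p = 0.0647 and 0.116). The sum of all 6 was 6.75 to 7.58 CPM in flox BMM, 6.50 to 6.99 in KO BMM, 2.97 to 3.70 in flox OC and 3.31 to 3.69 in KO OC. The part of these markers in the Npy result was not tested.

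Osm was at 3.35, 3.45 and 3.59 CPM in flox BMM and at 5.00, 3.66 and 4.75 CPM in KO BMM. The second KO library lay just above the flox range. The 1.28-fold difference passed narrowly (log2 fold change 0.36 with a standard error of 0.14, adjusted p = 0.0418 by edgeR), and it no longer passed with DESeq2 (adjusted p = 0.146) or with only the 6 libraries compared in the edgeR fit (adjusted p = 0.0508). Without flox BMM replicate 1, 2 or 3 or KO BMM replicate 1 or 3, the log2 fold change was 0.35, 0.36, 0.39, 0.28 and 0.31, with edgeR adjusted p-values of 0.0519 to 0.182.

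Metrnl was at 252, 245 and 242 CPM in flox BMM and at 229, 231 and 237 CPM in KO BMM, without overlap. The decrease was 1.06-fold (log2 fold change -0.08 with a standard error of 0.03, adjusted p = 0.0177 by edgeR). It was not called with library sizes alone (log2 fold change -0.05, adjusted p = 0.169 by edgeR) or without the low-count filter (adjusted p = 0.0646), nor without flox BMM replicate 1, KO BMM replicate 1 or KO BMM replicate 2, at -0.06, -0.07 and -0.08 on the log2 scale.

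Igf1 was at 1510.4, 1503 and 1542 CPM in flox BMM and at 1513, 1522 and 1455 CPM in KO BMM. The groups overlapped, and the log2 fold change was -0.02 with an SE of 0.03 (edgeR adjusted p = 0.560). Its direction turned with library sizes alone (0.01) and without KO BMM replicate 3 (0.0003), so none is given here.

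**Figure D3:**
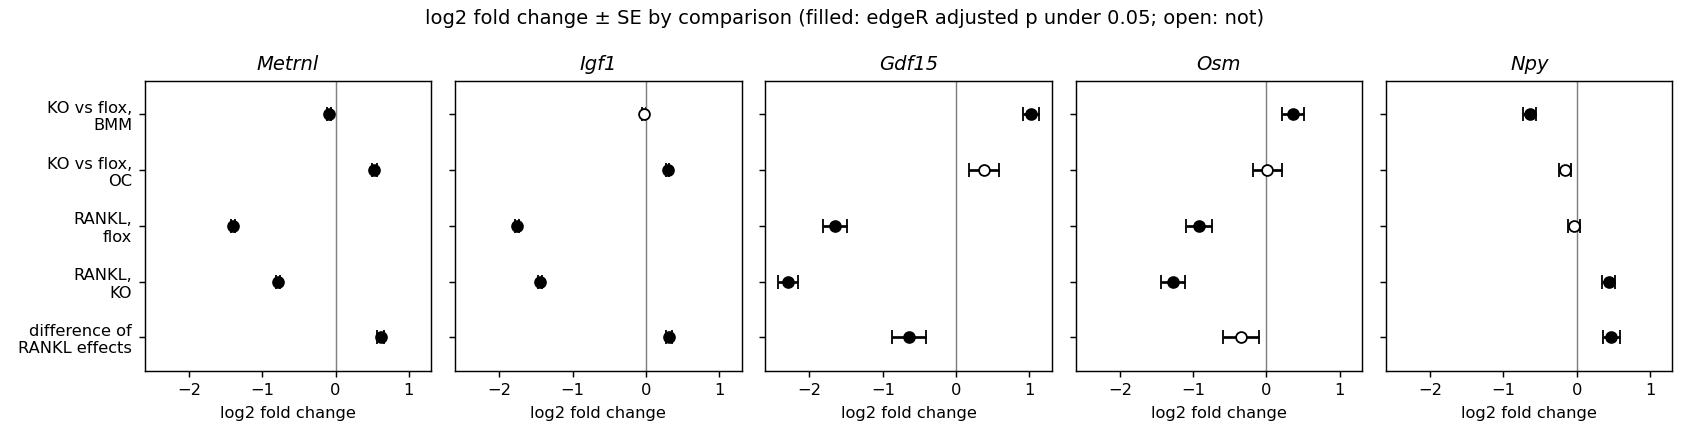
log2 fold change ± SE (horizontal axes, same scale) of each gene in the 5 comparisons (rows); filled points passed edgeR's adjusted p of 0.05 and open points did not. Gdf15 moved up and Npy down with genotype in BMM, Metrnl and Igf1 moved up with genotype in OC, and Npy was the only one of the 5 that did not fall with RANKL in either genotype.

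The same genotypes were then compared after 2 days with RANKL. Here Metrnl and Igf1 were the members that rose in KO cells, and Gdf15, Osm and Npy did not pass the test. Thus 2 of the 5 rose and 3 did not pass, against 41.3% of all tested genes called (21.4% higher and 19.9% lower).

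Metrnl was at 91.8, 94.9 and 93.5 CPM in flox OC and at 139, 133 and 133 CPM in KO OC. The gap between the groups was many times the spread within them. The rise was 1.44-fold (log2 fold change 0.53 with a standard error of 0.03, adjusted p = 1.19e-18 by edgeR).

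Igf1 was at 443, 444 and 455 CPM in flox OC and at 547, 547 and 554 CPM in KO OC, again with no overlap. It was 1.23-fold higher in KO cells (log2 fold change 0.30 with a standard error of 0.03, adjusted p = 3.13e-13 by edgeR). Both calls held in all 18 alternatives. In the same libraries the osteoclast marker sum was lower in KO OC, at 617 to 631 CPM against 981 to 997, and of its 10 tested markers 8 fell. The macrophage marker sum was 18243 to 18478 against 17452 to 17886 CPM, most of it from Lyz2, which rose from 10631 ± 185 to 11674 ± 90.8 CPM. Of the 14 macrophage markers, 6 rose and 4 fell in KO OC. Of all tested genes, 41.3% were called in this comparison (21.4% higher and 19.9% lower). The part of these shifts in Metrnl and Igf1 was not tested.

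Gdf15 in flox OC was at 1.76, 1.53 and 1.61 CPM, and in KO OC at 2.26, 2.62 and 1.51 CPM. The third KO library lay below the whole flox range. The log2 fold change was 0.38 (standard error 0.20, adjusted p = 0.129 by edgeR), and without KO OC replicate 3 it was 0.58 with an adjusted p of 0.0243. These libraries held 30 to 53 Gdf15 reads each.

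Npy was at 13.1, 12.3 and 13.3 CPM in flox OC and at 11.4, 11.7 and 11.4 CPM in KO OC. The groups did not overlap, yet the log2 fold change of -0.17 (SE 0.08) did not pass (edgeR adjusted p = 0.0989). No overlap between 3 and 3 libraries was itself common, since 51.3% of all tested genes showed it in this comparison. Osm was at 1.90, 2.03 and 1.56 CPM in flox OC and at 1.38, 1.98 and 2.16 CPM in KO OC, with overlap and a log2 fold change of 0.01 (standard error 0.20, adjusted p = 0.969 by edgeR).

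The effect of RANKL was larger than that of genotype for most of the set. In flox cells Metrnl, Igf1, Gdf15 and Osm fell and Npy did not pass, so that 4 of the 5 fell, in a comparison in which 74.8% of all tested genes were called, 37% upwards and 37.8% downwards. In KO cells the same 4 genes fell and Npy rose, against 70.5% called, 35.5% upwards and 35% downwards. The libraries with and without RANKL did not overlap for 4 of the 5 in flox cells and 5 of the 5 in KO cells. Such separation was common, as it held for 75.2% and 73.4% of all tested genes. The median log2 fold change of the 5 was -1.40 in flox cells and -1.27 in KO cells, where the median of all tested genes was -0.0036 and 0.0017. Macrophage markers fell to a similar extent. All 14 fell in flox cells (median -1.27) and 13 of the 14 in KO cells (median -1.03). Their part in the decrease of the 4 genes was not tested.

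Igf1 dropped the most among the abundant members, from 1518 ± 20.6 to 447 ± 6.74 CPM in flox cells (n = 3 each). This was a 3.39-fold decrease (log2 fold change -1.76 with a standard error of 0.03, adjusted p = 7.55e-45 by edgeR). In KO cells it went from 1497 ± 36.4 to 549 ± 4.20 CPM, a 2.72-fold decrease (log2 fold change -1.45 with a standard error of 0.03, adjusted p = 2.61e-41 by edgeR).

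Metrnl fell 2.64-fold with RANKL in flox cells, from 246 ± 4.95 to 93.4 ± 1.58 CPM (log2 fold change -1.40 with a standard error of 0.03, adjusted p = 1.60e-37 by edgeR). In KO cells it fell 1.72-fold, from 232 ± 4.17 to 135 ± 3.89 CPM (log2 fold change -0.78 with a standard error of 0.03, adjusted p = 1.38e-27 by edgeR). All RANKL-treated libraries were below all others, and the order of groups was flox BMM, KO BMM, KO OC and flox OC, with no overlap between neighbours.

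Gdf15 fell 3.14-fold in flox cells, from 5.18 ± 0.849 to 1.63 ± 0.116 CPM (log2 fold change -1.65 with a standard error of 0.17, adjusted p = 1.35e-12 by edgeR). The decrease in KO cells was 4.90-fold, from 10.4 ± 0.270 to 2.13 ± 0.570 CPM (log2 fold change -2.29 with a standard error of 0.13, adjusted p = 8.66e-21 by edgeR). Its highest group was KO BMM, and its 2 RANKL groups overlapped.

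Osm fell 1.89-fold in flox cells, from 3.46 ± 0.122 to 1.83 ± 0.240 CPM (log2 fold change -0.92 with a standard error of 0.17, adjusted p = 7.10e-06 by edgeR). In KO cells the decrease was 2.41-fold, from 4.47 ± 0.712 to 1.84 ± 0.406 CPM (log2 fold change -1.27 with a standard error of 0.16, adjusted p = 2.26e-09 by edgeR). The groups in M-CSF alone lay above both RANKL groups, which overlapped each other.

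Npy behaved differently from the other 4. In flox cells it was at 13.2 ± 1.44 CPM in M-CSF alone and 12.9 ± 0.528 with RANKL, with overlapping libraries and a log2 fold change of -0.04 (standard error 0.08, adjusted p = 0.693 by edgeR). The sign of this value turned with library sizes alone (0.13) and without flox BMM replicate 1 (0.02) or 2 (0.0044). In KO cells Npy rose 1.35-fold, from 8.47 ± 0.773 to 11.5 ± 0.159 CPM (log2 fold change 0.44 with a standard error of 0.09, adjusted p = 2.92e-05 by edgeR), and all 3 RANKL libraries were above the 3 others. From high to low, the groups were flox BMM, flox OC, KO OC and KO BMM, and only the first pair overlapped.

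Whether the RANKL effect differs between genotypes was tested as the difference of the 2 log2 fold changes, KO minus flox, which is also the difference of the genotype effect between OC and BMM. It passed for 4 of the 5 genes, 3 of them with a positive and 1 with a negative difference, against 21.9% of all tested genes called (12.3% positive and 9.54% negative). Metrnl had the largest difference by size among the positive ones, at 0.61 (standard error 0.04, adjusted p = 1.95e-15 by edgeR), since it fell less in KO cells. That of Igf1 was 0.32 (standard error 0.04, adjusted p = 2.37e-09 by edgeR), and that of Npy was 0.47 (standard error 0.12, adjusted p = 0.00266 by edgeR). These 3 differences held in all 17 alternatives. Of the 14 macrophage markers, 11 had a positive and 1 a negative difference that passed, with a median of 0.33. Their genotype effects lay elsewhere than those of Metrnl and Igf1, which were larger in OC. In KO BMM 2 of the 14 markers rose and 12 fell (median log2 fold change -0.22), where 39.9% of all tested genes were called. In KO OC 6 rose and 4 fell (median 0.04), where 41.3% were called. The part of these markers in the differences was not tested.

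For Gdf15 the difference was -0.64 (standard error 0.23, adjusted p = 0.0413 by edgeR), and it was not called with DESeq2 (adjusted p = 0.0778). It also lost its call when flox BMM replicate 2 or 3, KO BMM replicate 2 or 3, any of the 3 flox OC libraries, or KO OC replicate 1 or 3 was left out, with values of -0.68 to -0.44 and edgeR adjusted p-values of 0.0532 to 0.199 in those 9 fits. For Osm it was -0.35 (standard error 0.25, adjusted p = 0.352 by edgeR).

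Metrnl and Igf1 were nearly equal per kilobase in M-CSF alone but not with RANKL. The near equality rests on division by the summed exon length, 1586 bases for Metrnl and 9904 for Igf1, whichever transcripts were made. Without it they stood at 246 and 1518 CPM in flox BMM. The ratio of Igf1 to Metrnl was 0.961, 0.983 and 1.02 in flox BMM and 1.06, 1.06 and 0.984 in KO BMM. It was 0.773, 0.749 and 0.780 in flox OC and 0.629, 0.660 and 0.670 in KO OC. The BMM groups overlapped, and the KO OC ratios were the lowest of all 12.

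**Figure D4:**
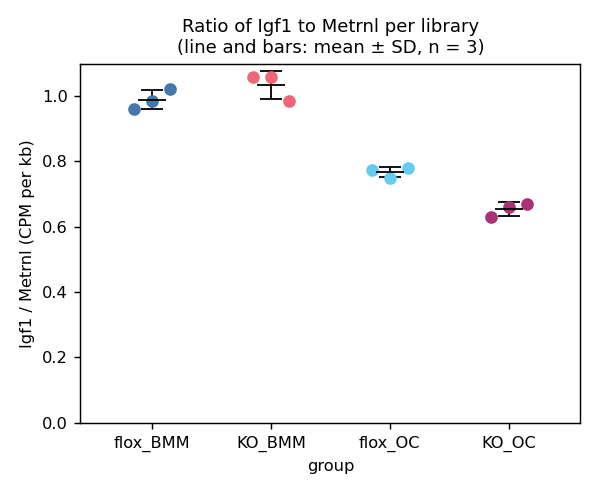
Ratio of Igf1 to Metrnl, both as CPM per kb (vertical axis, from 0), in each library of the 4 groups; points are libraries, and lines with bars are the mean ± SD of 3. The ratio was 0.961 to 1.06 in M-CSF alone, 0.749 to 0.780 in flox OC and 0.629 to 0.670 in KO OC.

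Across the 12 libraries, the genes most like each member were found by Pearson's r of log2 CPM among 9649 genes, as a description, since all points share the 4 groups. The nearest to Metrnl were Coro1a (r = 0.998), Sirpa (0.997) and Calr (0.997), and the nearest to Igf1 were Lgmn (0.9996), Cd84 (0.999) and Rnf150 (0.999). Gdf15 was closest to Ctdspl (0.989) and M1ap (0.987), and Osm to Osbpl2 (0.982), Ethe1 (0.969) and Evi5l (0.963). High values were common where RANKL set the pattern, as 1987 genes had an r above 0.9 with Metrnl and 2238 with Igf1. For Npy, by contrast, only 27 genes did, led by Hsd17b7 (0.975), Dip2c (0.966) and Rara (0.944). Hsd17b7 is an enzyme of cholesterol synthesis, and like Npy it was lowest in KO BMM, at 19.9 CPM against 27.5 in flox BMM, 28.8 in flox OC and 25.8 in KO OC.

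The partners of IGF1 included receptors, binding proteins and the growth hormone input. Of 23 listed genes 11 were tested. In BMM, 3 rose and 6 fell in KO cells, and in OC 5 rose and 3 fell. With RANKL, 2 rose and 9 fell in flox cells, and 2 rose and 6 fell in KO cells. The shares of all tested genes called in these comparisons were 39.9%, 41.3%, 74.8% and 70.5%. The median log2 fold changes were -0.13, 0.08, -0.51 and -0.36 in that order, with those of all tested genes between -0.0036 and 0.0060.

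Igf1r, the IGF1 receptor, fell with RANKL from 16.0 ± 0.861 to 11.2 ± 0.727 CPM in flox cells (edgeR adjusted p = 5.67e-08). Igf2r, which clears IGF2 and sorts lysosomal enzymes, rose from 475 ± 33.7 to 810.2 ± 19.7 CPM (edgeR adjusted p = 4.17e-07). Irs2, an adaptor of the insulin and IGF1 receptors, fell from 25.5 ± 2.30 to 4.08 ± 0.388 CPM (log2 fold change -2.64, adjusted p = 4.55e-30 by edgeR). The receptor side thus held members that moved both up and down.

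Igfbp4 was the most abundant IGF binding protein gene tested and moved in the same directions as Igf1. It was at 725 ± 28.1 CPM in flox BMM, 709 ± 8.79 in KO BMM, 143 ± 1.41 in flox OC and 209 ± 5.16 in KO OC. With RANKL it fell by 2.34 on the log2 scale in flox cells (edgeR adjusted p = 1.87e-47), and in OC it rose by 0.54 in KO cells (edgeR adjusted p = 6.68e-20), with no call in BMM (log2 fold change -0.03, adjusted p = 0.368 by edgeR). Pappa, the protease that cleaves IGFBP4, fell in KO BMM from 1.60 ± 0.271 to 0.537 ± 0.0568 CPM (log2 fold change -1.57, adjusted p = 3.83e-06 by edgeR), and Igfbp7 from 4.94 ± 0.509 to 1.96 ± 0.286 CPM (log2 fold change -1.33, adjusted p = 3.15e-10 by edgeR). In the same comparison the stromal marker sum went from 199 to 217 down to 63.3 to 70.5 CPM, and its part in Pappa and Igfbp7 was not tested.

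OSM signals through gp130 (Il6st) with OSMR or LIFR. Osmr had 75 reads over the 12 libraries and did not pass the low-count filter. Il6st fell in KO cells, from 118 ± 4.43 to 96.4 ± 1.25 CPM in BMM (log2 fold change -0.30, adjusted p = 7.82e-10 by edgeR) and from 127 ± 3.09 to 93.4 ± 1.10 CPM in OC (log2 fold change -0.44, adjusted p = 2.45e-15 by edgeR). Lifr fell with RANKL from 11.9 ± 1.65 to 1.20 ± 0.328 CPM in flox cells (log2 fold change -3.32, adjusted p = 1.18e-14 by edgeR). Socs3, the feedback inhibitor of gp130 signalling, rose with RANKL from 4.13 ± 0.507 to 39.1 ± 1.59 CPM in flox cells and from 2.30 ± 0.228 to 9.87 ± 0.689 CPM in KO cells, and was lower in KO OC than in flox OC by 1.98 on the log2 scale (log2 fold change -1.98, adjusted p = 4.60e-29 by edgeR). Of the 10 tested of 16 listed genes, 1 rose and 5 fell in KO BMM, 3 rose and 3 fell in KO OC, and 3 rose and 6 fell with RANKL in each genotype, against 39.9%, 41.3%, 74.8% and 70.5% of all tested genes called.

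Of the 12 genes listed with NPY, 8 had no read in any library, among them its receptors Npy1r, Npy2r, Npy4r, Npy5r and Npy6r, and 3 reads would correspond to 0.138 to 0.162 CPM in these libraries. The 3 tested genes encode enzymes that mature neuropeptides. Pam, which amidates the peptide end, fell in KO BMM from 161 ± 6.94 to 109 ± 1.20 CPM (log2 fold change -0.56, adjusted p = 1.60e-19 by edgeR), in the same comparison in which Npy fell. Cpe, a carboxypeptidase, fell from 3.69 ± 0.150 to 1.39 ± 0.322 CPM (log2 fold change -1.42, adjusted p = 5.59e-09 by edgeR). The stromal marker sum was 199 to 217 CPM in flox BMM and 63.3 to 70.5 in KO BMM, and its part in Pam and Cpe was not tested. With RANKL, Pam and Cpe rose in both genotypes, Pam by 0.27 and 0.72 and Cpe by 1.47 and 1.81 on the log2 scale in flox and KO cells. Pcsk1, a prohormone convertase, stood at 1.05 to 1.79 CPM in the 4 groups and also rose with RANKL, by 0.58 and 0.57 (edgeR adjusted p = 0.0274 and 0.0221). Thus 3 of the 3 rose in both genotypes, where 74.8% and 70.5% of all tested genes were called in flox and KO cells. The shares called higher were 37% and 35.5%. The Pcsk1 calls were not shared by DESeq2 (adjusted p = 0.0774 and 0.0765). In flox cells the call was lost without flox BMM replicate 1 (0.43) or flox OC replicate 1 (0.35), and in KO cells without KO BMM replicate 2 (0.57) or 3 (0.45) or KO OC replicate 1 (0.51) or 2 (0.49).

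The list around GDF15 held its receptor parts and genes of the stress pathways known to induce it. Gfral had no read, as is usual outside the brainstem, and Ret had 46 reads in all. Of 14 listed genes 12 were tested, of which 1 rose and 4 fell in KO BMM, where Gdf15 rose, and 2 rose and 6 fell in KO OC. With RANKL, 5 rose and 4 fell in flox cells and 4 rose and 7 fell in KO cells, and all tested genes were called at 39.9%, 41.3%, 74.8% and 70.5% in that order. Trib3, a pseudokinase induced by ATF4 and CHOP, was the gene that rose in KO BMM with Gdf15, from 1.62 ± 0.0846 to 2.28 ± 0.0972 CPM (log2 fold change 0.49, adjusted p = 0.0377 by edgeR). This call was lost without any 1 of the 6 BMM libraries (0.45 to 0.53), without the low-count filter (edgeR adjusted p = 0.0668) and with DESeq2 (adjusted p = 0.140). Trib3 also rose in KO OC, from 1.08 ± 0.170 to 1.73 ± 0.286 CPM (log2 fold change 0.67, adjusted p = 0.0101 by edgeR), a call lost without flox OC replicate 2 (0.56) or KO OC replicate 3 (0.55). With RANKL it fell in flox cells by 0.58 on the log2 scale (edgeR adjusted p = 0.0175), but not with library sizes alone (-0.42), with DESeq2 (adjusted p = 0.0574) or without flox BMM replicate 2 (-0.54) or flox OC replicate 2 (-0.47). Ddit3, which encodes CHOP and was named after its values were seen, fell with RANKL from 11.5 ± 0.602 to 7.13 ± 0.229 CPM in flox cells and from 12.3 ± 0.753 to 8.14 ± 0.268 in KO cells (edgeR adjusted p = 2.41e-09 and 2.87e-08). Atf3, a stress-induced transcription factor, fell with RANKL as Gdf15 did, from 162 ± 4.77 to 38.0 ± 1.53 CPM in flox cells (log2 fold change -2.09, adjusted p = 2.06e-41 by edgeR), but in KO BMM it was lower, at 129 ± 1.46 CPM (log2 fold change -0.32, adjusted p = 1.10e-11 by edgeR). Asns, an amino acid response gene, rose with RANKL from 20.2 ± 0.890 to 48.4 ± 1.62 CPM in flox cells (log2 fold change 1.26, adjusted p = 9.41e-27 by edgeR). Cdkn1a, the p21 gene and a p53 target, was at 444 ± 29.1 CPM in flox BMM and 429 ± 3.13 in KO BMM (edgeR adjusted p = 0.218) and fell in KO OC from 558 ± 14.2 to 362 ± 9.41 CPM (log2 fold change -0.62, adjusted p = 1.79e-18 by edgeR). Atf4, named here after its values were seen, rose with RANKL from 88.2 ± 2.09 to 174 ± 4.94 CPM in flox cells (log2 fold change 0.98, adjusted p = 3.76e-29 by edgeR), opposite to Gdf15.

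Metrn, the paralog of Metrnl, was at 3.35 ± 0.323, 3.92 ± 0.250, 3.09 ± 0.285 and 3.96 ± 0.397 CPM in flox BMM, KO BMM, flox OC and KO OC. It was called higher in KO OC (log2 fold change 0.35, adjusted p = 0.0366 by edgeR), but not with DESeq2 (adjusted p = 0.130), without the low-count filter (edgeR adjusted p = 0.0600) or without flox OC replicate 2 (0.28) or 3 (0.38) or KO OC replicate 1 (0.28) or 3 (0.35). Metrn shares 59.9% of its exonic bases with Gm26694, so its unstranded counts are uncertain. Pcsk7 shares 10.3% with Rnf214 and Tagln, Igfbp7 shares 7.01% with Polr2b, and Ddit3 shares 4.73% with Gm4189 and Mars. Bcl3, given only in the colour plot of log2 fold changes, shares 6.48% with Gm16175. No other partner or secreted factor gene named here or drawn in that plot shares more than 4.03%. Among the markers named, Syp shares 16.8% with Gm14703. Kit, which encodes a reported receptor of METRNL, had 13 reads over the 12 libraries and was not tested. Among the 4 tested of 6 listed processing proteases, Furin fell with RANKL from 241 ± 8.92 to 154 ± 0.607 CPM and Adam10 from 548 ± 20.4 to 350.5 ± 7.87 CPM in flox cells (both -0.65 on the log2 scale, edgeR adjusted p = 4.21e-24 and 2.58e-25). Adam17 rose there from 395 ± 2.18 to 418 ± 7.14 CPM, a call lost in 1 of 12 fits with a library left out. In KO cells 2 of the 4, Adam17 and Pcsk7, rose and 2 fell. All tested genes were called at 74.8% in flox and 70.5% in KO cells.

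Other secreted factors gave a background for the 5. Of 35 listed genes 25 were tested, of which 6 rose and 12 fell in KO BMM, 7 rose and 12 fell in KO OC, 5 rose and 15 fell with RANKL in flox cells and 4 rose and 14 fell in KO cells, against 39.9%, 41.3%, 74.8% and 70.5% of all tested genes called. Their median log2 fold changes were -0.31, -0.14, -0.42 and -0.34. Gas6, the ligand of the TAM receptors that clear dying cells, had the pattern of Metrnl in OC. It was at 796 ± 6.52 CPM in flox BMM, 899 ± 15.8 in KO BMM, 60.6 ± 1.48 in flox OC and 113 ± 1.56 in KO OC, so that it fell 3.71 on the log2 scale with RANKL in flox cells (log2 fold change -3.71, adjusted p = 1.16e-54 by edgeR) and rose in KO OC by 0.90 (edgeR adjusted p = 7.05e-27). Apoe, the lipid-carrying apolipoprotein, fell in both KO groups, from 2928 ± 140.0 to 2168 ± 35.8 CPM in BMM and from 1187 ± 34.0 to 749 ± 12.6 CPM in OC (edgeR adjusted p = 1.04e-17 and 3.42e-24). Il10, an anti-inflammatory cytokine, fell in KO BMM from 2.05 ± 0.452 to 0.503 ± 0.0347 CPM (log2 fold change -2.01, adjusted p = 7.20e-08 by edgeR). Il1rn, the IL-1 receptor antagonist, rose with RANKL from 14.1 ± 0.901 to 53.3 ± 3.62 CPM in flox cells (log2 fold change 1.92, adjusted p = 4.88e-32 by edgeR). Sparc, a matrix protein of stromal cells and also of macrophages, fell in KO BMM from 31.5 ± 1.89 to 10.4 ± 0.835 CPM (log2 fold change -1.59, adjusted p = 1.41e-23 by edgeR), beside a stromal marker sum of 199 to 217 CPM in flox BMM and 63.3 to 70.5 in KO BMM, whose part was not tested.

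**Figure D5:**
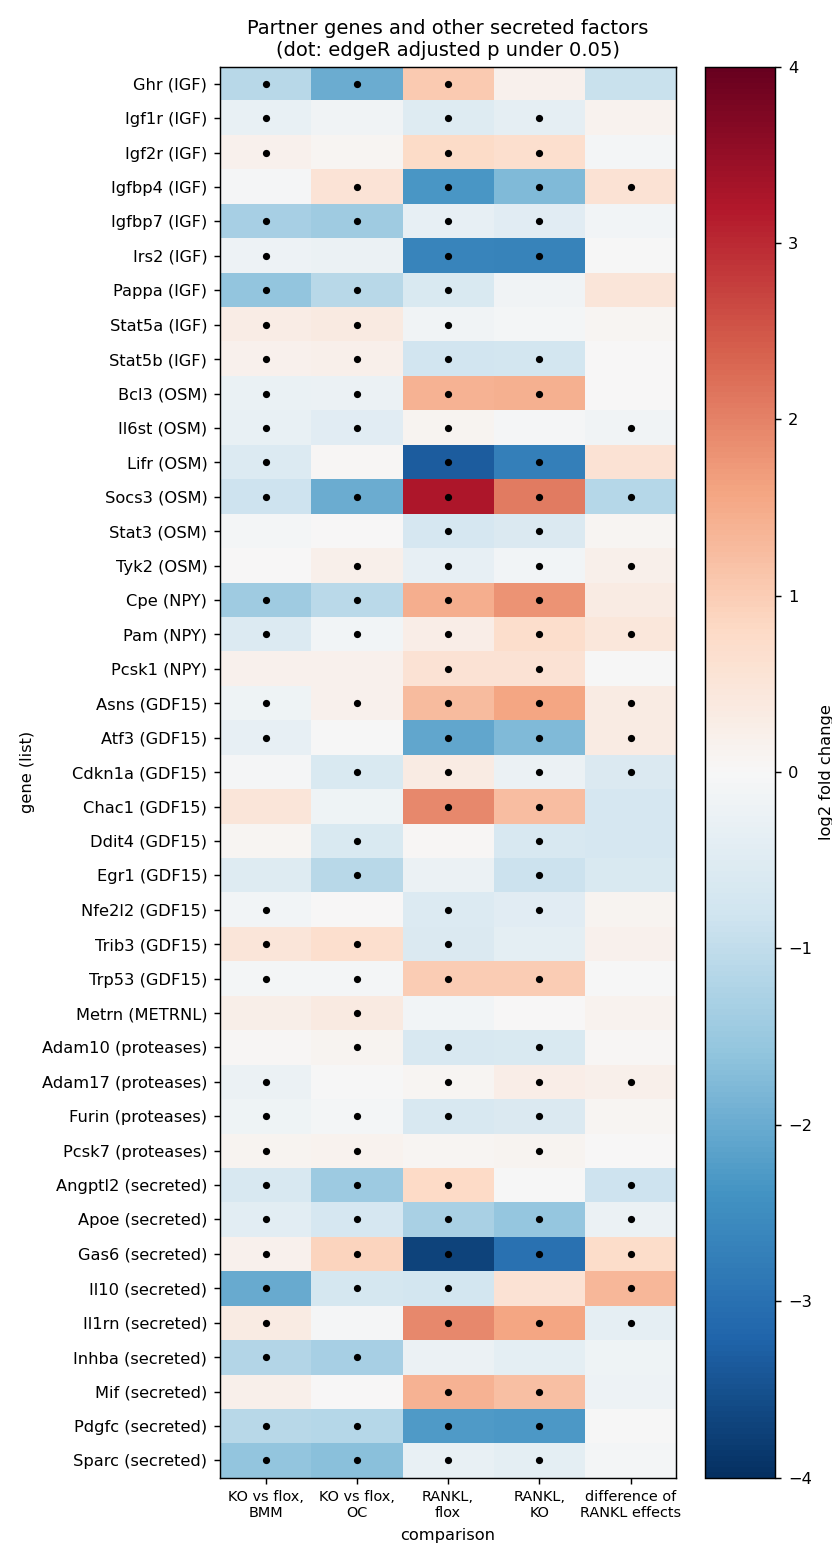
log2 fold change (colour, red higher and blue lower) of 41 named partner and secreted factor genes (rows, with their list) in the 5 comparisons (columns); dots mark genes with an edgeR adjusted p under 0.05. Igfbp4 and Gas6 were lower with RANKL and higher in KO than in flox OC, Socs3 rose with RANKL in both genotypes, and Cpe, Sparc and Pdgfc were lower in both KO groups.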

How the data were processed

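The authors deposited raw read counts per gene for each of 12 libraries, without normalization. Per the submitters' processing notes, alignment was to GRCm38 with STAR 2.0.4b, and per the file headers they were counted over exons with featureCounts 1.4.5-p1 and Ensembl release 76, ignoring strand, so antisense reads cannot be told apart. Groups and replicate numbers came from the titles. Symbols came from GENCODE M21 names and matched 40254 of 41388 identifiers; the other 1134, with 0.136% of counts, stayed in the tests unnamed.

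The members and gene lists were chosen with earlier results of these data known. All 12 libraries were fitted together with edgeR 4.0.16 in R 4.3.3 (quasi-likelihood F test, TMM factors, default filter on low counts, robust estimation), with Benjamini-Hochberg adjustment over 13030 genes for each of 5 contrasts. The code was tested on simulated data. Standard errors were derived from F, as the size of the log2 fold change divided by its root. Medians of lists cover tested genes only. Beside the 5 members, the genes named were those called in each list with the largest changes, up to 4 per 2-group comparison with at least 1 CPM in the higher group, the most abundant markers, and 3 genes most like each member with at least 5 CPM in the highest group; markers and partners named for having few or no reads were chosen after their values were seen. A result that this rule would name is not reported here.

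Replicates differed beyond sampling noise (chi-square per degree of freedom 1.25 to 5.43), so none was merged. In a library, 3 reads, the limit a count of 0 allows, correspond to 0.138 to 0.162 CPM, for counting error only. Alternatives were library sizes alone, RLE size factors, DESeq2 1.42.0, no low-count filter, only the groups compared, the replicate number as a block, and leaving out each library.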

Additional observations from a re-analysis of the deposited data

Results flagged for a closer look

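The genotype effect in OC differed from that in BMM, by the test of the difference itself, for 4 of the 5 secreted factor genes, where 21.9% of all tested genes were called. It also differed for 14 of the 41 other genes named by rule, most of which were named for large changes in the 2-group comparisons, so that their count cannot be read against that share. Values are the log2 fold change of KO against flox in OC minus that in BMM, with edgeR's adjusted p under 0.05 for each. Metrnl differed by 0.61, from -0.08 in BMM to 0.53 in OC. Igf1 differed by 0.32, from -0.02 to 0.30, and Npy by 0.47, from -0.64 to -0.17. Gdf15 differed by -0.64, from 1.02 to 0.38, in a call that DESeq2 did not share (adjusted p = 0.0778).

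Among partner genes, positive differences were found for Igfbp4 (0.58), Gas6 (0.72), Pam (0.45), Asns (0.33), Atf3 (0.31), Adam17 (0.20), Tyk2 (0.19) and Il10 (1.32, with group means of 0.503 to 2.05 CPM). Negative differences were found for Socs3 (-1.15), Angptl2 (-0.82), Cdkn1a (-0.57), Il1rn (-0.36), Apoe (-0.23) and Il6st (-0.15), and for Atf4 (-0.34), which was named after its values were seen. Among markers, the difference was 0.29 for Lyz2, -1.19 for Acp5 and 1.09 for Elavl4, the last also named after its values were seen and not called without KO OC replicate 1 (0.80). The Il10 call was lost without flox OC replicate 3 (1.09) or KO OC replicate 3 (1.00), and that of Il6st without KO BMM replicate 2 (-0.13), flox OC replicate 2 (-0.13) or 3 (-0.14) or KO OC replicate 2 (-0.14).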

How the results depend on the processing

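Of 25 results on the 5 genes with a test, 18 kept their direction and side of the threshold in every alternative (18 for each 2-group comparison, 17 for the difference). With library sizes alone, Metrnl in BMM was -0.049 (log2 fold change, KO against flox), Igf1 in BMM 0.015 and Npy with RANKL in flox cells 0.13; without the low-count filter Metrnl in BMM was -0.076. DESeq2 gave -0.64 for the Gdf15 difference (adjusted p = 0.0778) and 0.36 for Osm in BMM (adjusted p = 0.146), which was 0.36 in the edgeR fit of only the groups compared (adjusted p = 0.0508). With 1 library left out, Metrnl in BMM ranged from -0.098 to -0.060, Gdf15 in OC from 0.20 to 0.58, the Gdf15 difference from -0.82 to -0.44, Npy with RANKL in flox cells from -0.12 to 0.019 (0.019 and 0.0044 without flox BMM replicate 1 and 2), Igf1 in BMM from -0.033 to 0.00030 (the latter without KO BMM replicate 3) and Osm in BMM from 0.28 to 0.49. Osm in OC ranged from -0.11 to 0.18, and was -0.09, -0.04 and -0.11 without flox OC replicate 3, KO OC replicate 2 and KO OC replicate 3. Where fewer libraries were fitted, fewer entered the test; the cause of the other changes was not tested.

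Library sizes alone moved 12 of 20 group levels by 1 SD or more: Metrnl to 231, 223, 98.4 and 142 CPM and Igf1 to 1423, 1438, 471 and 579.6 CPM in flox BMM, KO BMM, flox OC and KO OC, Gdf15 in KO BMM to 10.0, Npy in flox OC and KO OC to 13.6 and 12.1, and Osm in flox BMM to 3.25. They shifted the median of all genes by 0.16 and 0.14 (log2) with RANKL in flox and KO cells. The split into higher and lower calls went from 2513 and 2690 to 3330 and 2228 for KO BMM, from 4822 and 4925 to 6321 and 3737 with RANKL in flox cells, from 4627 and 4555 to 5972 and 3429 in KO cells, and from 1607 and 1243 to 1312 and 1715 for the difference. Ranking by CPM without length put Igf1 at 1 and Metrnl at 2 in flox BMM, flox OC and KO OC, Gdf15 at 3 and Npy at 4 in KO BMM, and Osm at 4 and Gdf15 at 5 in flox OC.

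Same-numbered libraries did not deviate together (correlations of deviations from -0.04 to 0.03). The replicate number as a block (pairing by number) changed no call among the 25 results and gave 5150 called genes in BMM against 5203, with Gdf15 at 1.02. All 89 recomputed counts of called genes were within 1.5 times. For the other named genes, 2731 of 2861 recomputed values kept their call, 128 lost it and 2 changed sign, Stat5a with RANKL in flox cells (0.014) and Tyk2 in KO cells (0.014), both with library sizes alone. Gdf15 and Osm rested on 27 to 223 reads a library, and the smallest difference that this depth can show was not tested.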
